A study of Mus musculus with 9 samples.

Results

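The pluripotency genes of primordial germ cells were examined in embryonic ovaries before and after grafting into male mice. The genes were Pou5f1, Dppa5a, Sox2, Nanog, Dppa3, Utf1, Prdm1, Prdm14, Tfap2c and Kit, a list made by name, with earlier results of these data known. Of the 45101 probe sets on the array, 15 are annotated to 1 of these 10 genes alone, and in all 18194 genes have a probe set of their own. The probe set brightest on average over the 9 arrays stands for each gene. For Utf1, Tfap2c and Kit, the 3 genes with several probe sets, the others served as a check.

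Primordial germ cells are the embryonic precursors of eggs and sperm. They are set apart by PRDM1, PRDM14 and TFAP2C, and they keep the core pluripotency factors POU5F1, SOX2 and NANOG that are also found in embryonic stem cells. In the fetal ovary these factors are switched off as germ cells enter meiosis, whereas growing oocytes later make POU5F1 and store proteins for the early embryo such as DPPA3.

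The study asked how ovaries become partly masculinized in a male host. Day 0 was the XX ovary of embryonic day E13.0, not grafted, and the grafts were ovaries of the same age kept under the kidney capsule of intact XY nude mice, which lack a thymus, for 4, 7, 10, 15 or 20 days. Every mother, including those of the day 0 ovaries, had been given busulfan, an alkylating drug used here to deplete germ cells, so that all groups are germ cell-depleted to an extent the labels do not give. The labels name ICR as the strain, whereas the methods name C57BL/6 and ICR for the mothers. Days 0, 10 and 20 have 2 arrays each, called biological replicates in the labels, and days 4, 7 and 15 have 1 array each. Each graft array is a pool of about 10 grafts. Which litters and hosts went into a pool is not stated, and p-values therefore reflect the spread between pools alone, which may be technical.

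All values are log2 intensities normalized by the authors. Array medians lay between 6.49 and 6.63, and the 25th percentile of all values, 4.82, is taken here as close to background. Replicate 1 of day 20 stood apart: the median of 10 kidney proximal tubule genes was 5.86 above the day 0 mean there and -0.21 on replicate 2. The 10 markers of fetal ovary somatic cells were between 10.11 and 13.41 on the day 0 arrays. By day 10, 3 of them fell, and by day 20, 6, counts that varied from 0 to 5 and from 1 to 8 over the alternative settings. Foxl2 and Nr2f2 went the other way without passing the test given next. Their log2 fold changes were 1.29 and 0.36 on day 10 and 0.83 and 0.42 on day 20. Each gene was tested with limma on all arrays, with Benjamini-Hochberg adjustment over all probe sets, and called at an adjusted p under 0.05 with more than a 2-fold change. In pooled tissue, fewer germ cells and less RNA per germ cell cannot be told apart.

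The genes followed 3 courses. Sox2 was low in every graft from day 4 on, and was called lower on each day but day 4. Nanog, Prdm14 and Utf1 had lower values in all 7 graft arrays than in both day 0 arrays without passing the test. The share of all probe sets that do the same is not given here. Such separation, here and below, therefore describes the values and is no result about these genes. Pou5f1, Dppa5a, Dppa3 and Tfap2c had their lowest values on day 4. Values were higher again from day 10 for Pou5f1 and Dppa5a, and already on day 7 for Dppa3. For Tfap2c the probe set used was higher from day 10, though at 4.80 on replicate 1 of that day. Its other probe sets differed by -0.15 and 0.12 between days 10 and 4. Kit and Prdm1 kept within 1.05 and 0.84 on the log2 scale over all 9 arrays, and the other probe set of Kit within 1.56. On day 10, 1 of the 10 genes was called lower and 0 higher, where 1.33% and 2.87% of all probe sets were. On day 20, again 1 of the 10 was called lower and 0 higher, against 3.10% and 4.52% of all probe sets. With so few genes these shares are no result about the group as a whole.

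**Figure D1:**
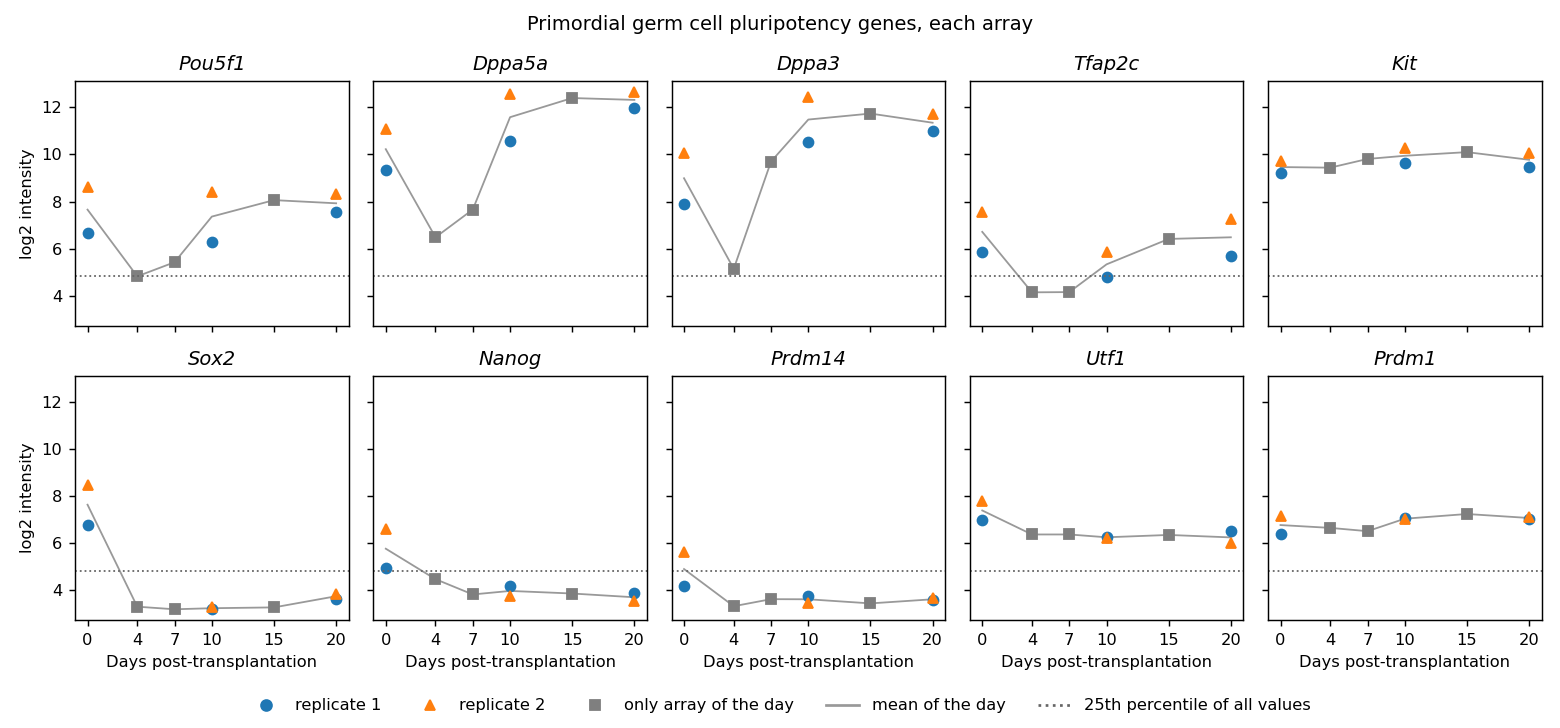
Log2 intensity (y axis) of each of the 10 genes against days post-transplantation (x axis) on the 9 arrays. Circles are replicate 1, triangles replicate 2, squares the only array of a day, the line joins the means of the days and the dotted line is the 25th percentile of all values, 4.82. Sox2 lies between 3.20 and 3.86 on the 7 graft arrays. Dppa5a, Dppa3 and Pou5f1 are low on day 4, and are higher from day 10 or, for Dppa3, from day 7.

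Sox2 encodes an HMG-box transcription factor that binds DNA together with POU5F1. Its values on the day 0 arrays were 6.79 on replicate 1 and 8.50 on replicate 2. The grafts had 3.31 on day 4, 3.20 on day 7, 3.21 and 3.28 on day 10, 3.28 on day 15, and 3.65 and 3.86 on day 20. Both day 0 arrays were far above every graft, and all 7 graft values lay under 4.82. The log2 fold change was -4.40 ± 0.53 (SE) on day 10, which is 21.1-fold lower (limma, adjusted p = 0.0146). On day 20 it was -3.89 ± 0.53, or 14.8-fold lower (adjusted p = 0.0137).

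The single arrays of days 7 and 15 gave Sox2 log2 fold changes of -4.44 (adjusted p = 0.0405) and -4.37 (adjusted p = 0.0339), with a spread borrowed from the days with duplicates. On day 4 the change was -4.33 and missed the threshold by limma (adjusted p = 0.0597). Since the grafts were near background, the size of the fall is uncertain. With all values under 4.82 raised to it, the change was -2.83 on each of these days, and the adjusted p was 0.164 on day 10 and 0.127 on day 20, so that the call was lost. The calls also depend on the number of arrays, although the sizes moved little. Without replicate 1 or replicate 2 of day 10, the day 10 change was -4.36 or -4.44, and Sox2 was called on neither day 10 nor day 20. Fewer of all probe sets were called in these fits as well. Without replicate 1 of day 20, which carried the kidney transcripts, the day 20 change was -3.79, which was not called either. Sox2 lies within Sox2ot, a noncoding gene, whose probe set had values from 3.27 to 3.66 on all arrays.

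Nanog encodes a homeodomain factor of the same core network. It had 4.95 and 6.60 on day 0, 4.48 on day 4, 3.83 on day 7, 4.18 and 3.78 on day 10, 3.87 on day 15, and 3.88 and 3.54 on day 20. The day 0 arrays did not overlap with the grafts, but replicate 1 of day 0 was barely above the 25th percentile. The log2 fold change was -1.79 (95% interval -3.11 to -0.48) on day 10 and -2.06 (-3.37 to -0.75) on day 20. Neither passed the test by limma (adjusted p = 0.135 and 0.0702).

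Prdm14, a PR-domain factor required for germ cell specification, had 4.19 and 5.63 on day 0. Its grafts lay between 3.33 on day 4 and 3.78 on replicate 1 of day 10. Of its 9 values 8 were under the 25th percentile, and replicate 2 of day 0 was the exception. Prdm14 differed from day 0 by -1.29 on day 10 (adjusted p = 0.198) and -1.29 on day 20 (adjusted p = 0.147), neither called by limma.

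Utf1, a chromatin-associated factor of undifferentiated cells, had 6.99 and 7.81 on day 0. Its grafts lay between 6.0 and 6.51, both of them day 20 arrays, so that the days were flat after grafting and did not overlap with day 0. The log2 fold change was -1.14 on day 10 (adjusted p = 0.121) and -1.15 on day 20 (adjusted p = 0.085). The other 2 probe sets of Utf1 gave -0.58 and -0.36 on day 10 and -0.47 and -0.56 on day 20. All 3 probe sets thus had the same sign, and none passed the test.

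Sequence before a transcript start was available for 6 of the 10 genes, from RefSeq on the GRCm38.p6 build. For Prdm1 the start is not that of the annotated gene. The 250 bases upstream are shown on the plus strand, which is also the strand of these genes, for Sox2 (chr3:34649745-34649994), Nanog (chr6:122707239-122707488) and Utf1 (chr7:139943606-139943855), whose values were lower in every graft than on day 0, and for Pou5f1 (chr17:35505782-35506031), whose values were not. They are printed so that matches to short motifs can be read, and binding was not tested. Capitals mark ATGCAAA, part of the octamer that POU factors bind, and ACAATG, a core bound by SOX factors, on either strand. In Utf1 and Pou5f1 alone they mark GGGCGG, the GC box of SP-family factors.
Sox2: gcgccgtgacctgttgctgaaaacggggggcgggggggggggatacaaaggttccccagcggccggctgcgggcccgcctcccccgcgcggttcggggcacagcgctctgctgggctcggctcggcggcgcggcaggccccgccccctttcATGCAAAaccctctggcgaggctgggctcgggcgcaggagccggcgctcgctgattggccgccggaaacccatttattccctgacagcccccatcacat
Nanog: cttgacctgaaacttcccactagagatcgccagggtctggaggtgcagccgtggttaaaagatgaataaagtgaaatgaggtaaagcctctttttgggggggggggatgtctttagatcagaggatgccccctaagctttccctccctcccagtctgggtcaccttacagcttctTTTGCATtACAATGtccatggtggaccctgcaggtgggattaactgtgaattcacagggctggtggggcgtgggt
Utf1: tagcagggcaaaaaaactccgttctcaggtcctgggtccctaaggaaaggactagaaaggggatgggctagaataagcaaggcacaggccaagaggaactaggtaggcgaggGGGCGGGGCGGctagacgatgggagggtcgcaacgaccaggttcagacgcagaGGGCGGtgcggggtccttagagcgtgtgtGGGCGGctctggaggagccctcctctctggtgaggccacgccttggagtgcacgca
Pou5f1: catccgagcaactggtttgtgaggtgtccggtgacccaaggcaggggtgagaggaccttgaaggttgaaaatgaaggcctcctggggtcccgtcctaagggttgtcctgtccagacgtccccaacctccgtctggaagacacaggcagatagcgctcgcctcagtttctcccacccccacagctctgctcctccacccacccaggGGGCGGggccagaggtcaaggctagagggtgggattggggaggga

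ATGCAAA was found in 2 of the 6 genes. In Sox2 it lies 99 to 93 bases before the gene start, and in Nanog 75 to 69 bases before it on the opposite strand, where the capitals read as its reverse complement. Over all 32851 promoters of the table, 4.12% hold it. In Nanog, ACAATG follows 67 to 62 bases before the start and shares no base with it, and 10.7% of all promoters hold that motif on either strand. ACAATG also lies 158 to 153 bases before another start of Pou5f1, in a window not printed here. GGGCGG occurs in 32.7% of all promoters. Utf1 has 4 matches, of which the first and the second share a base, and Pou5f1 has 1, from 45 to 40 bases before the start. Sox2 has 2 matches, 223 to 218 bases before the start and, on the opposite strand, 111 to 106 bases before it, which are not capitalised, and Kit has 1. The full octamer ATGCAAAT, held by 1.60% of all promoters, is not in these windows. The matches are descriptions of the sequence.

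Pou5f1 encodes the POU-domain factor OCT4. It had 6.68 and 8.63 on day 0, 4.82 on day 4, 5.42 on day 7, 6.30 and 8.42 on day 10, 8.06 on day 15, and 7.55 and 8.30 on day 20. The arrays of days 10 and 20 overlapped with those of day 0, and days 4 and 7 lay below all others. By limma the log2 fold change was -0.29 on day 10 (95% interval -2.51 to 1.93, adjusted p = 0.891) and 0.28 on day 20 (-1.94 to 2.50, adjusted p = 0.872). These intervals leave room for a change of more than 2-fold either way. On day 4 the difference was -2.83 (adjusted p = 0.475).

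Dppa5a encodes an RNA-binding protein of embryonic stem cells and germ cells. It had 9.36 and 11.09 on day 0, 6.48 on day 4, 7.66 on day 7, 10.59 and 12.58 on day 10, 12.40 on day 15, and 11.99 and 12.65 on day 20. The day 10 arrays overlapped with day 0, whereas day 15 and both arrays of day 20 lay above it. Dppa5a differed from day 0 by 1.36 on day 10 (adjusted p = 0.412), 2.17 on day 15 (adjusted p = 0.349) and 2.09 on day 20 (adjusted p = 0.177), none called by limma. The day 4 array was 3.75 below the day 0 mean, and the adjusted p was 0.254.

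Dppa3 encodes a maternal factor that protects the maternal genome of the zygote from demethylation. It had 7.90 and 10.08 on day 0, 5.14 on day 4, 9.70 on day 7, 10.53 and 12.44 on day 10, 11.74 on day 15, and 11.0 and 11.70 on day 20. It spanned 7.29 on the log2 scale, the widest range of the 10 genes. From day 10 every array was above both day 0 arrays. Dppa3 was above the day 0 mean by 2.49 on day 10 (adjusted p = 0.199), 2.75 on day 15 (adjusted p = 0.283) and 2.36 on day 20 (adjusted p = 0.166), and none was called by limma. On day 4 it was -3.85 (adjusted p = 0.286).

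Tfap2c, an AP-2 factor that acts with PRDM1 in germ cell specification, had 5.85 and 7.57 on day 0. It had 4.14 on day 4, 4.15 on day 7, 4.80 and 5.86 on day 10, 6.41 on day 15, and 5.70 and 7.26 on day 20. The first 3 graft arrays named were under the 25th percentile, and the arrays of days 10 and 20 overlapped with day 0. The log2 fold change by limma was -1.38 on day 10 (adjusted p = 0.378) and -0.23 on day 20 (adjusted p = 0.876). The other 2 probe sets had the same sign on both days.

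Prdm1 encodes the zinc finger repressor BLIMP1, which starts the germ cell program and is also made by plasma cells. It had 6.41 and 7.15 on day 0, and the grafts lay between 6.52 on day 7 and 7.25 on day 15. Its log2 fold change was 0.27 on day 10 (adjusted p = 0.62) and 0.29 on day 20 (adjusted p = 0.523), neither called by limma. In the list of 9 B and plasma cell genes, 1 rose on day 10 and 5 rose on day 20. Among them was Jchain, the joining chain of secreted antibodies, at 7.26 on the log2 scale on day 20. The rest of the list was not called on day 20, with Irf4 at 0.47, Tnfrsf17 at 0.05, Sdc1 at -0.09 and Cd79a at -0.25. Over the alternative settings 0 to 1 were called on day 10, with 0 when replicate 1 of day 0 or either array of day 10 was left out, and 2 to 5 on day 20. The part of such cells in the Prdm1 values was not tested.

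Kit encodes the receptor of KIT ligand, which is found on germ cells, oocytes and mast cells. It had 9.22 and 9.71 on day 0, 9.44 on day 4, 9.81 on day 7, 9.62 and 10.27 on day 10, 10.10 on day 15, and 9.48 and 10.07 on day 20. The day 10 and day 20 arrays overlapped with day 0. Grafts differed from day 0 by 0.48 on day 10 (95% interval -0.34 to 1.29, adjusted p = 0.471) and 0.31 on day 20 (-0.50 to 1.13, adjusted p = 0.585). The other probe set of Kit gave 0.49 on day 10 and -0.01 on day 20.

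Mast cell genes were examined beside Kit. The median of the 8 mast cell genes was 2.52 above the day 0 mean on day 4, with 5 of 8 called higher, and between 0.69 and 1.13 above it on the later arrays. Cpa3, a mast cell protease, rose by 4.46 on the log2 scale on day 4, and Cma1, mast cell chymase, by 4.84. Hdc, the histamine-forming enzyme, had a change of -0.93 on day 4 and -1.70 on day 10, and Ms4a2, a subunit of the IgE receptor, one of 0.87 on day 4, none of them called. On the day 4 array the change of Kit was -0.02, and that of its other probe set was -0.63. The part of mast cells in the Kit values was not tested.

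**Figure D2:**
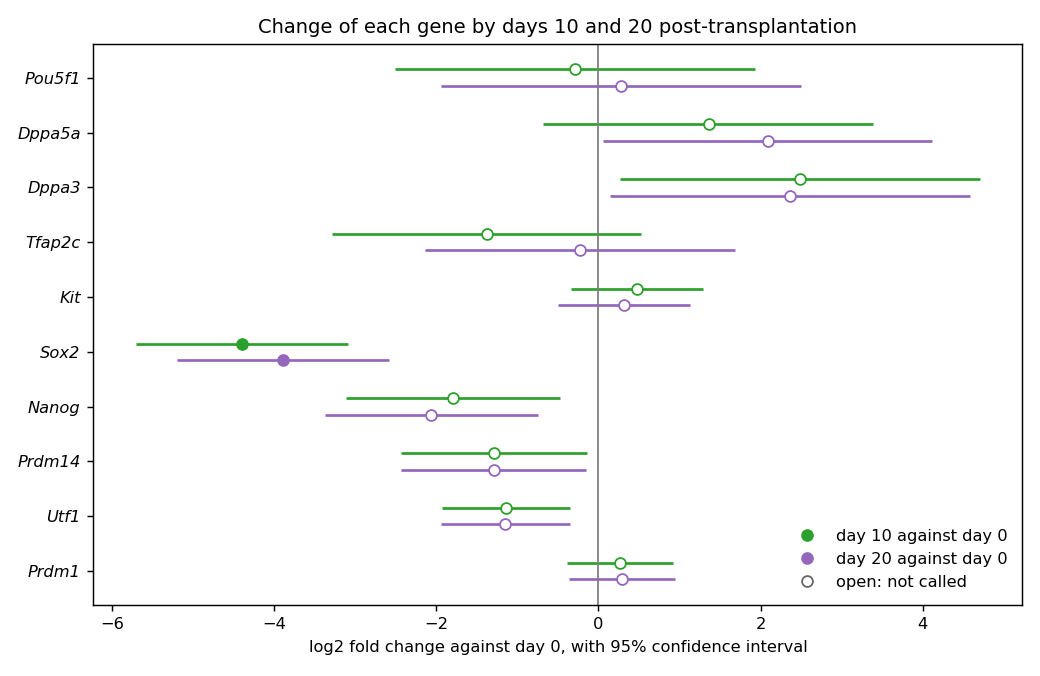
Log2 fold change against day 0 (x axis) of each gene (y axis) on days 10 (green) and 20 (purple), with 95% confidence intervals from limma. Filled points passed the test and open points did not. Sox2 has the filled points, -4.40 and -3.89, and the intervals of Pou5f1, Tfap2c, Kit and Prdm1 include 0 on both days.

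On day 4, 0 of the 10 genes was called lower or higher by limma, while 0.155% and 0.774% of all probe sets were, and 7 of 10 had an unadjusted p under 0.05, all 7 of them lower, where 4.33% of all probe sets were lower and 5.65% higher at that threshold. The median log2 fold change of the 10 genes was -2.08 on day 4, and that of all probe sets was -0.06, with medians of all probe sets between -0.11 and -0.05 in the other comparisons with day 0 or day 10. On day 7, 1 of 10 was called lower and 0 higher, against 0.386% and 1.28% of all probe sets, and the median was -1.61. On day 15, 1 of 10 was called lower and 0 higher, against 0.800% and 2.0%, and the median was 0.05. On day 10 the median was -0.72 and on day 20 it was 0.02, with 5 and 6 of the genes at an unadjusted p under 0.05, of which 4 were lower on each day. At that threshold 20.8% of all probe sets passed on day 10 (11.3% lower) and 26.8% on day 20 (15.8% lower).

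Day 7 differed between the genes. Dppa3 was at 9.70 on that array, 0.71 above the day 0 mean, whereas Pou5f1 was 2.23 and Dppa5a 2.57 below their own means. The lone array of day 7 allows no check of this order.

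Between days 20 and 10, 0 of the 10 genes was called lower or higher by limma, with 0% and 0.00222% of all probe sets called, and 0 had an unadjusted p under 0.05, whereas 5.0% of all probe sets did. The largest difference was 1.15 for Tfap2c (95% interval -0.76 to 3.06). Compared with the day 4 array, which was chosen as a reference after its values were seen, Dppa3 was 6.34 higher on day 10 and 6.21 higher on day 20, Dppa5a 5.10 and 5.84, and Pou5f1 2.54 and 3.11 on the log2 scale. None of these passed the test by limma (lowest adjusted p = 0.129, for Dppa5a on day 20), and 0 of the 10 genes was called, where 0% of all probe sets were called higher on day 10 and 0.0177% on day 20. Sox2 differed by -0.07 on day 10 and 0.44 on day 20 from that array.

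Sox2 and Nanog stayed under the 25th percentile on all 7 graft arrays, so that their courses after day 4 cannot be read. Pou5f1 was at 4.82 on day 4 and at 6.30 or above on every array from day 10.

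The day 0 arrays, which enter every comparison with day 0, differed in the germ cell signal. Replicate 2 was above replicate 1 for all 10 genes, by 2.18 for Dppa3, 1.95 for Pou5f1, 1.74 for Dppa5a, 1.72 for Tfap2c, 1.71 for Sox2, 1.64 for Nanog and 1.44 for Prdm14 on the log2 scale. The differences were 0.82 for Utf1, 0.74 for Prdm1 and 0.49 for Kit. The 95th percentile of this difference over all probe sets was 0.57, and 9 of the 10 genes exceeded it. The median over 20 genes of germ cell identity and meiosis was 1.75, with Ddx4, a germ cell RNA helicase, at 7.37 and 9.61 and Stra8, the meiotic gatekeeper, at 6.58 and 9.63. The median over 10 fetal ovary somatic genes was -0.16. The extent of germ cell depletion in each pool is not given, and its part in these differences was not tested.

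The day 10 arrays split the genes. Replicate 2 was above replicate 1 by 2.13 for Pou5f1, 1.99 for Dppa5a, 1.90 for Dppa3 and 1.05 for Tfap2c, and oocyte growth genes differed by a median of 1.96 in the same direction. For Sox2, Utf1 and Prdm1 the difference was within 0.07 on either side of 0, and for Nanog and Prdm14 it was -0.39 and -0.31. On day 20, Tfap2c differed by 1.56 and the other genes by 0.75 or less on either side of 0.

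**Figure D3:**
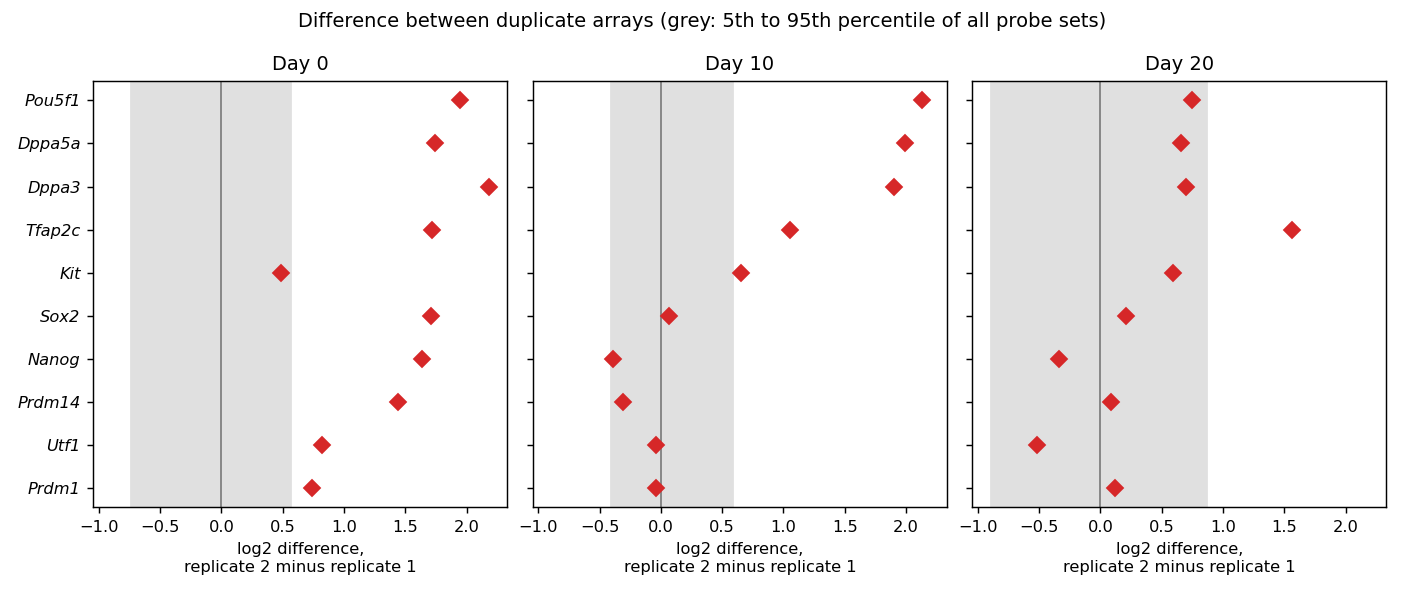
Difference in log2 intensity between replicate 2 and replicate 1 (x axis) for each gene (y axis) on days 0, 10 and 20. The grey band holds the 5th to the 95th percentile of all probe sets. On day 0, all points but that of Kit lie right of the band, and on day 10 Pou5f1, Dppa5a, Dppa3, Tfap2c and Kit do.

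Since the day 0 arrays stood so far apart, each change was also computed with 1 of them left out. Against replicate 1 alone, the day 20 grafts were 1.25 higher for Pou5f1, 2.96 for Dppa5a and 3.45 for Dppa3. Against replicate 2 alone the differences were -0.70, 1.22 and 1.27. Each such fit keeps 1 day 0 array and so holds no spread between day 0 pools. Sizes alone are therefore given. Sox2 was lower against either array, by -3.04 and -4.75 on day 20. Against replicate 2 alone, Nanog was at -2.88 and Prdm14 at -2.01 on day 20. Against replicate 1 alone Nanog was at -1.24 and Prdm14 at -0.57. With replicate 1 of day 20, the array with kidney transcripts, left out, the day 20 change was 2.71 for Dppa3, 2.42 for Dppa5a, 0.65 for Pou5f1, 0.55 for Tfap2c and -2.23 for Nanog, and no gene was called.

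Other genes of the pluripotency network were measured for 16 of 17 listed. On day 10, 0 of 16 was called, and on day 20, 1 was higher and 0 lower, with list medians of -0.14 and -0.10. The gene called was Tcl1, an AKT coactivator that is abundant in oocytes, which had 5.65 and 7.58 on day 0, 5.85 on day 4, 8.77 and 10.92 on day 10 and 10.87 and 11.53 on day 20 (log2 fold change on day 20 4.58 ± 0.89, adjusted p = 0.0351 by limma). Zfp42, the stem cell factor REX1, had 4.64 and 7.50 on day 0 and between 3.58 and 4.00 in the grafts, and its change of -2.19 on day 20 was not called (adjusted p = 0.179). The call of Tcl1 did not hold with any of the 6 duplicate arrays left out (adjusted p from 0.0518 to 0.136). Sall4, a zinc finger partner of POU5F1, had 7.69 and 9.36 on day 0, 5.44 on day 4 and 9.32 and 9.90 on day 20.

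Of 14 listed genes of germ cell specification, migration and survival, 12 were measured, and 1 rose and 1 fell on both days. Cxcl12, the chemokine that guides migrating primordial germ cells, rose by 2.46 on day 10 and 2.43 on day 20 on the log2 scale (adjusted p = 0.0154 and 0.0108, limma). Ifitm1, a membrane protein of early germ cells, fell by 1.63 and 2.60 (adjusted p = 0.0281 and 0.0055). With replicate 1 of day 0 or either array of day 10 left out, neither was called on day 10, nor was Ifitm1 without replicate 2 of day 0. The Ifitm1 values on day 0, 13.71 and 13.77, differed little between replicates, unlike those of the 10 genes. Ifitm3, of the same list, went the other way, at 0.74 on day 10 and 0.87 on day 20. Both changes were under 2-fold and not called (adjusted p = 0.094 and 0.0441, limma). On the lone array of day 7 the change of Ifitm3 was 2.0. Kitl, the ligand of KIT, had 13.43 and 13.66 on day 0. Its change was -0.42 on day 10 and -1.55 on day 20, neither called (adjusted p = 0.639 and 0.0865, limma). On day 20 it had 11.35 on replicate 1, the array with kidney transcripts, and 12.64 on replicate 2.

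**Figure D4:**
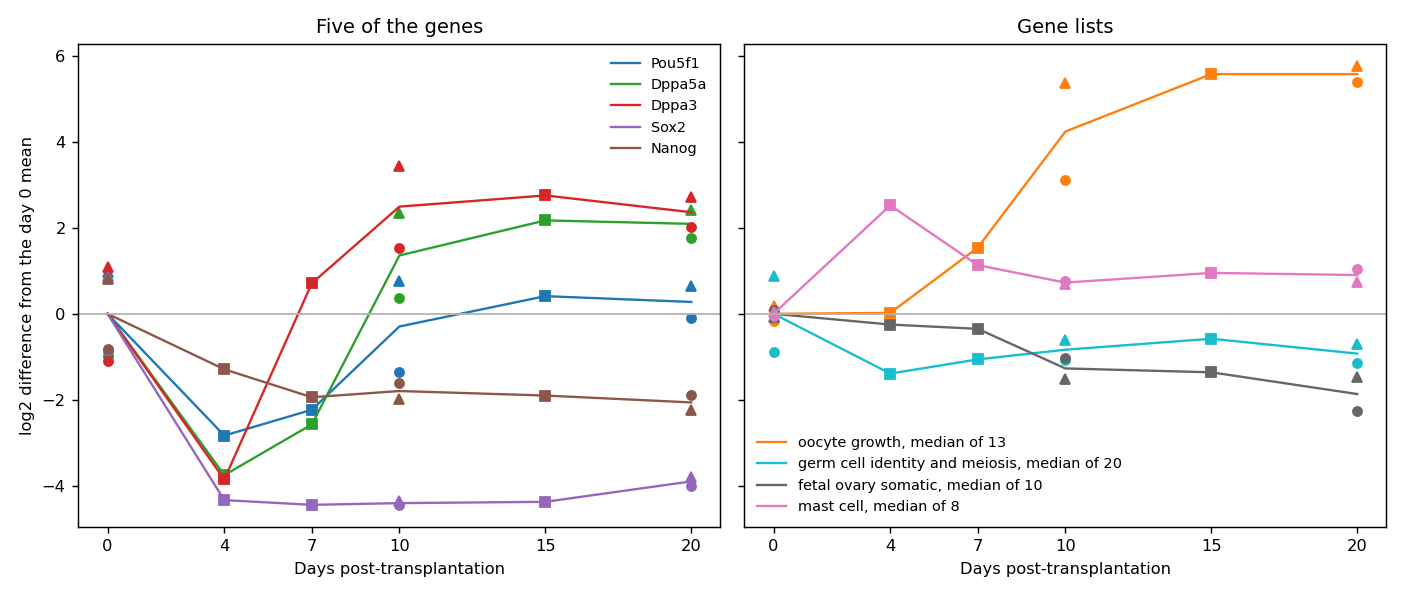
Log2 difference from the day 0 mean (y axis) by days post-transplantation (x axis) for Pou5f1, Dppa5a, Dppa3, Sox2 and Nanog (left) and for the medians of 4 gene lists (right). Circles are replicate 1, triangles replicate 2, squares the only array of a day, and lines join the means of the days. Oocyte growth genes reach 5.76 above the day 0 mean on day 20, when Sox2 is at -4.00 and -3.79.

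Of 13 oocyte growth genes, 9 rose by day 10 and 11 by day 20, and their median was 0.02 above the day 0 mean on day 4, 1.54 on day 7, 3.10 and 5.37 on the day 10 arrays and 5.38 and 5.76 on those of day 20. Zp3 and Zp2, coat proteins of the oocyte, rose by 6.98 and 6.40 on day 10, and Oosp1, an oocyte-secreted protein, by 7.69 on day 20. Sohlh1 was not called on either day, at 0.20 on day 10 and -1.11 on day 20. Nor was Figla, at 2.46 and 1.74. Of 20 genes of germ cell identity and meiosis, 2 fell on each day, with a median of -0.72 on day 10, and the others were not called, among them Tdrd1 (1.01 on both days) and Sycp2 (0.28 and 0.98). With either day 0 array left out, fewer of the 13 oocyte growth genes were called on both days. The same held on day 10 without replicate 2 of day 10. Fewer of all probe sets were called in these fits as well. The change of Zp3 on day 10 was 6.83 and 7.13 without replicate 1 and replicate 2 of day 0. The genes that fell were Rec8, a meiotic cohesin subunit, at -3.43 on day 10 and -3.74 on day 20, and Taf7l, a germ cell subunit of the transcription machinery, at -3.53 and -3.85. With either array of day 10 left out, these calls were lost on day 10, and without replicate 1 of day 0 more of the 20 were called on both days. Fewer of all probe sets were called in each of these fits. The part of oocyte numbers or size in the values of Pou5f1, Dppa5a and Dppa3 was not tested.

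The genes most like Pou5f1 over the 9 arrays, among 2315 candidates that spanned at least 2 on the log2 scale, were Ddx4 (Pearson r = 0.99), Terb1 (0.98), Ube2t (0.96), Sall4 (0.95) and Stk31 (0.95). Terb1 is a meiotic telomere protein and Stk31 a germ cell kinase-like protein. Those most like Kit were Figla, an oocyte transcription factor (r = 0.91), and Cited1, Uchl1, Tdrd1 and Bfsp1 (0.88 each). These correlations describe 9 points that share the makeup of each pool. Among the 10 genes, the correlation of Pou5f1 was 0.92 with Dppa5a and 0.33 with Sox2. The RefSeq table lists 5 copies named after Pou5f1, 2 each after Dppa5a and Nanog and 1 after Dppa3, and whether the probes also read them was not tested.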

How the data were processed

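RNA of 9 pools was labelled with 1 of 2 kits, with no record here of which array had which. The authors deposited log2 intensities made with RMA, which corrects background, normalizes arrays by quantiles and summarises each probe set. Its version is not stated. There is no detection call per probe, and the number of arrays limits precision. Arrays were grouped by day from the labels. Of the probe sets, 34958 have 1 gene symbol in the annotation given, 932 several and 9211 none.

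limma 3.58.1 (lmFit, eBayes; R 4.3.3) fitted a mean per day to all 45101 probe sets, with 3 residual and 2.69 prior degrees of freedom. The spread came from the 3 days with duplicates, and days 4, 7 and 15 were assumed to vary alike. The test was tried on simulated data. P-values had Benjamini-Hochberg adjustment, and a call needed an adjusted p under 0.05 and more than a 2-fold change. Tables and plots used Python 3.11.15.

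The 10 genes and the gene lists were chosen with earlier results of these data known, so that no count over them is independent evidence. Named besides the 10 genes are up to 4 called genes per list on days 10 and 20, list genes that describe the day 0 arrays, and the 5 genes most correlated with Pou5f1 and with Kit. Zfp42, Sall4, Kitl, Hdc, Ms4a2, Tdrd1, Sycp2 and the mast cell values of day 4 were added after values were seen. So were Foxl2, Nr2f2, Ifitm3, Sohlh1, the changes of Figla, Irf4, Tnfrsf17, Sdc1 and Cd79a. Of the 2 kidney lists, 1 of 10 proximal tubule genes (Miox) and 1 of 7 distal nephron genes (Atp6v0d2) rose on day 20. Alternatives were an intensity trend, array centring, a filter on the mean, raised low values, fewer arrays, no fold threshold, other probe sets, a replicate block and each duplicate array left out.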

Additional observations from a re-analysis of the deposited data

How the results depend on the processing

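Of the alternatives for the 10 genes, 584 values kept direction and side of the threshold, 21 lost a call, 6 gained 1 and 10 reversed. All lost calls were of Sox2, under 8 of 12 alternatives on day 7, 3 on day 10, 5 on day 15 and 5 on day 20. The other genes had no call to lose, so the 584 are no measure of stability. Sox2, the gene called lower on days 7, 10, 15 and 20, was not called (0 genes) on any of these days with low values raised to the 25th percentile or with probe sets above the median mean, where it is not tested, nor on days 7, 15 and 20 with only the arrays of the 2 days. On day 4 it was called (1 gene) with an intensity trend and with arrays centred on their medians. Leaving out single arrays gave 0 to 1 genes called lower on days 7, 10 and 15 and 0 to 3 on day 20.

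With the replicate block, 2 genes were called higher on day 20, Dppa5a (2.09, adjusted p = 0.043) and Dppa3 (2.36, adjusted p = 0.0404), and 0 lower on days 7 and 15, where Sox2 was at -4.11 and -4.04. The differences between replicates correlated by -0.16 between days 0 and 10, 0.15 between days 0 and 20 and -0.13 between days 10 and 20, so the numbers are taken as names.

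Directions of small changes were not stable. Without single arrays, Pou5f1 ranged from -1.36 to 0.77 on day 10 (0.68 without replicate 2 of day 0) and from -0.70 to 1.25 on day 20 (-0.10 without replicate 2 of day 20), Prdm1 from -0.10 to 0.64 on day 10 and -0.08 to 0.67 on day 20, and Tfap2c from -1.09 to 0.63 on day 20 (0.55 without replicate 1 of day 20). Other probe sets gave -0.01 for Kit on day 20 and -0.15 for Tfap2c on day 10 against day 4. The causes were not tested. Over all alternatives, 0 to 11 oocyte growth genes were called higher on day 10 and 2 to 12 on day 20. Tcl1 lost its call under 8 of 12 alternatives, and Cxcl12 and Ifitm1 lost theirs on day 10 under 4 and 5 of 12.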
